A study of Mus musculus with 24 samples.

Results

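Alveolar macrophages are the resident phagocytes of the lung's air sacs, and here 3 libraries of them were compared with 9 libraries of 3 other tissue macrophages. The series holds 24 RNA sequencing libraries, and the 12 used are the WT ones: 3 of alveolar macrophages from lung, 3 of Kupffer cells from liver, 3 of microglia from brain and 3 of splenic macrophages. The libraries were chosen by their labels for cell type and genotype alone, and the 12 libraries of the other genotype were not used. Each was made from the RNA of 100000 macrophages sorted out of digested tissue. All groups carry the WT genotype, and the labels used here give no strain, age or sort gate and name no treatment. Nor do they say whether replicates came from separate animals, so p-values measure only the spread between these libraries, which may be technical.

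Alveolar macrophages live on the air side of the epithelium, in contact with surfactant, the film of lipid and protein that keeps the air sacs open. They take up spent surfactant and inhaled particles, and surfactant builds up where GM-CSF signalling fails. GM-CSF from epithelial cells drives the nuclear receptor PPARG and with it a program of lipid handling, whereas most other tissue macrophages depend on M-CSF or IL-34 through the receptor CSF1R. Kupffer cells line the liver's sinusoids, microglia are the macrophages of the brain, and splenic red pulp macrophages clear aged red cells and recycle their iron. In bulk libraries, fewer cells of a type and less RNA per cell cannot be told apart.

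The label was checked against 4 marker genes, all of which were high in the alveolar libraries. Siglecf, a sialic acid-binding lectin, read 612, 572 and 570 CPM (a gene's count scaled to the library's total) in alveolar replicates 1, 2 and 3. Its nearest other type was microglia, at 49.7, 70.9 and 71.8 CPM. Chil3, a secreted chitinase-like protein, read 17373, 21877 and 21980 CPM, against 2.44, 4.55 and 16.5 in splenic macrophages, 0.814, 0.635 and 0.852 in Kupffer cells and 0 in all 3 microglial libraries. Car4, a membrane-bound carbonic anhydrase, read 616, 821 and 1067 CPM and at most 6.13 in any other library. Krt79, a keratin, read 804, 669 and 629 CPM and at most 0.688 elsewhere. For each of these 4 genes the 3 alveolar libraries lay above all 9 others.

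Total counts ranged from 50704045 to 62984970 over the 12 libraries, and from 54136122 to 60645840 in alveolar macrophages. Between 17436 and 18514 genes reached 10 counts in an alveolar library. Replicates all differed by more than counting error, with a chi-square per degree of freedom of at least 48.0. In a principal component analysis the first component (35.2% of the variance) set microglia apart and the second (23.4%) set alveolar macrophages apart. Alveolar replicate 2 stood out from the other alveolar libraries in genes above them. In it 15 genes were over 4-fold above both others, against 2 in replicate 1 and 2 in replicate 3, among genes that reached 10 CPM. The 15 included inflammatory cytokine and immediate early genes, described below, and alveolar replicate 3 stood apart in heat shock genes. Genes over 4-fold below both others numbered 2, 5 and 8 in alveolar replicates 1, 2 and 3. Libraries of other types also stood apart, with 16 genes below in Kupffer replicate 2 and 11 above in microglial replicate 3.

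Promoters are shown for 4 genes from the extremes of the comparison, since Chil3 and its neighbour Chil4 were among the genes with the largest excess and C1qb and C1qc, which encode chains of complement C1q, among those with the largest deficit. Chil3 lies at chr3:106147554-106167564 on the minus strand (mm10). The sequences are the 250 bases before each gene's start in RefSeq (build GRCm38.p6), read on the gene's strand. In another annotation, GENCODE, C1qc reaches to chr4:136893065, so part of its window lies inside the gene as drawn there. Capitals mark the letters GGAAGT, the core of a PU.1-type ETS motif, and TGCTGA, the core of a MAF-type motif, found on either strand (on the other strand they read ACTTCC and TCAGCA).

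Chil3, chr3:106167565-106167814, minus strand: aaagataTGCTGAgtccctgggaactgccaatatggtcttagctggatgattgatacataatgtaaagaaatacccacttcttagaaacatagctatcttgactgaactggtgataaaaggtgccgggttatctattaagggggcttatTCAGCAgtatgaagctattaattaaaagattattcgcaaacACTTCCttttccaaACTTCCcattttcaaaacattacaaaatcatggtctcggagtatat
Chil4, chr3:106219480-106219729, minus strand: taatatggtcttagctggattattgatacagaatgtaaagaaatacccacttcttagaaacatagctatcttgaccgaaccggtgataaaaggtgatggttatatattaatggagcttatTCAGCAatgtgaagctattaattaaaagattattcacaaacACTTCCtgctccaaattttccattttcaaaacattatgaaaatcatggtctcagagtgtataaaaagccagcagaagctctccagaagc
C1qb, chr4:136886201-136886450, minus strand: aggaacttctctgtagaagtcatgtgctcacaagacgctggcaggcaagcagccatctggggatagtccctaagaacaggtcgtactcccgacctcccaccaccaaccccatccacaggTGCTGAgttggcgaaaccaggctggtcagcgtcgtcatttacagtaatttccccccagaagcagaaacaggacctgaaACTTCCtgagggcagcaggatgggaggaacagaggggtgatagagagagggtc
C1qc, chr4:136892915-136893164, minus strand: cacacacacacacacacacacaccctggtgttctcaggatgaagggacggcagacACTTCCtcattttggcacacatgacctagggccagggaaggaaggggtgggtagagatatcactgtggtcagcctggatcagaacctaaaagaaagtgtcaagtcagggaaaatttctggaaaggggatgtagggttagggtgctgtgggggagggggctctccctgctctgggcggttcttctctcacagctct

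The Chil3 window held both motifs at 2 places each, and the Chil4 window held each once. The C1qb window held each motif once, and the C1qc window held GGAAGT once and TGCTGA at no place. GGAAGT was found in 19.7% of all 32851 promoter windows of this length and TGCTGA in 16.1%. Next came protein-coding genes higher in alveolar macrophages than in each other type, at 50 CPM or more and without overlap. In their windows (333 of 418 genes matched, 443 windows) the shares were 22.6% and 14%. In the windows of genes that were lower under matching conditions (135 of 169 genes matched, 182 windows) they were 22% and 12.6%. Of the other motifs searched on both strands, CACGTG, the E-box of BHLHE40 and BHLHE41, stood in 9.03% of the windows of higher genes, 7.69% of those of lower genes and 6.02% of all windows. AGGTCA, a nuclear receptor motif, stood in 11.1%, 14.3% and 14%, and TTGCNNAA, a C/EBP-type motif, in 11.7%, 6.04% and 9.56%. The last of the 7 motifs searched were CACCTG, the E-box of ZEB factors, in 17.6%, 15.4% and 17.2%, and the TATA box TATAAA in 7.45%, 12.1% and 12.4%. These matches are descriptions of letters, not binding sites.

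Of 21679 genes tested with edgeR's quasi-likelihood test, 3760 were higher in alveolar macrophages than in the mean of the other 3 types (17.3%) and 3179 were lower (14.7%), at a Benjamini-Hochberg adjusted p under 0.05. Of these, 1494 and 1448 differed by more than 4-fold. The median log2 difference over all tested genes was 0.0. This mean is taken on the log scale, so a gene near 0 in 1 type can pass while another type exceeds the alveolar level. Each pair of types was therefore compared as well. Against Kupffer cells 2688 genes were higher in alveolar macrophages (12.4%) and 3387 lower (15.6%), against splenic macrophages 2767 (12.8%) and 3073 (14.2%), and against microglia 4424 (20.4%) and 4201 (19.4%). The correlation of mean log CPM across the tested genes, which are not independent replicates, was 0.87 with splenic macrophages, 0.859 with Kupffer cells and 0.807 with microglia. Requiring an adjusted p under 0.05 and more than a 2-fold difference against every other type left 769 genes higher than in each (3.55%) and 896 lower than in each (4.13%). In 766 of the 769 all 3 alveolar libraries exceeded all 9 others, which held for 2390 of all tested genes (11%). In 821 of the 896 they all lay below, which held for 1457 (6.72%). Both sets were chosen on these same values, so the separation is no independent support.

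The 20 genes with the largest excess were taken from 418 protein-coding genes that were higher than in each other type and reached 50 CPM in alveolar macrophages. All 3 alveolar libraries also had to lie above all 9 others, so the lack of overlap was set by the selection. Chil3 led the 20, at 2604-fold its mean in splenic macrophages, the next highest type. Chil4 read 493, 585 and 607 CPM and at most 0.764 elsewhere. Because 16.9% of the 50-base windows in Chil3 transcripts also occur in Chil4, reads of the pair may be assigned uncertainly. Atp6v0d2, a subunit of the proton pump that acidifies lysosomes, read 1634, 1627 and 1590 CPM, against a mean of 0.934 ± 0.646 in Kupffer cells (SD, n = 3) and less in the other types. Plet1, a membrane protein of epithelial progenitors, read 1374, 1419 and 1370 CPM and at most 1.39 elsewhere. Cidec, a lipid droplet protein that enlarges droplets, read 621, 506 and 649 CPM and at most 0.86 elsewhere. Olr1, a receptor for oxidized low-density lipoprotein, read 547, 788 and 508 CPM and at most 1.1 elsewhere. For each of these the alveolar libraries lay far above the 9 others.

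The same 20 held further transporters and a channel. Slc9a4, a sodium-proton exchanger, read 239, 223 and 244 CPM and was at 0 in all Kupffer and microglial libraries. Slc39a2, a zinc importer, read 129, 121 and 148 CPM with up to 2.54 in microglia, and Kcnn3, a calcium-activated potassium channel, read 185, 119 and 138 CPM with up to 0.71 in Kupffer cells. Flvcr2, a membrane transporter of the heme transporter family, read 497, 403 and 428 CPM with up to 1.07 elsewhere. F7, which encodes coagulation factor VII, read 560, 549 and 586 CPM against 3.48 ± 2.86 in Kupffer cells. Ear1, an eosinophil-associated ribonuclease, read 475, 521 and 425 CPM against 1.63 ± 0.133 in splenic macrophages. The rest were the keratin Krt19, Trim29, Vstm2a, Cpne5, Rufy4, the surfactant gene Sftpc, Krt79 and Car4. The spread among the 3 alveolar libraries was small beside these gaps, with Sftpc, at 232, 80.4 and 126 CPM, the widest.

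**Figure D1:**
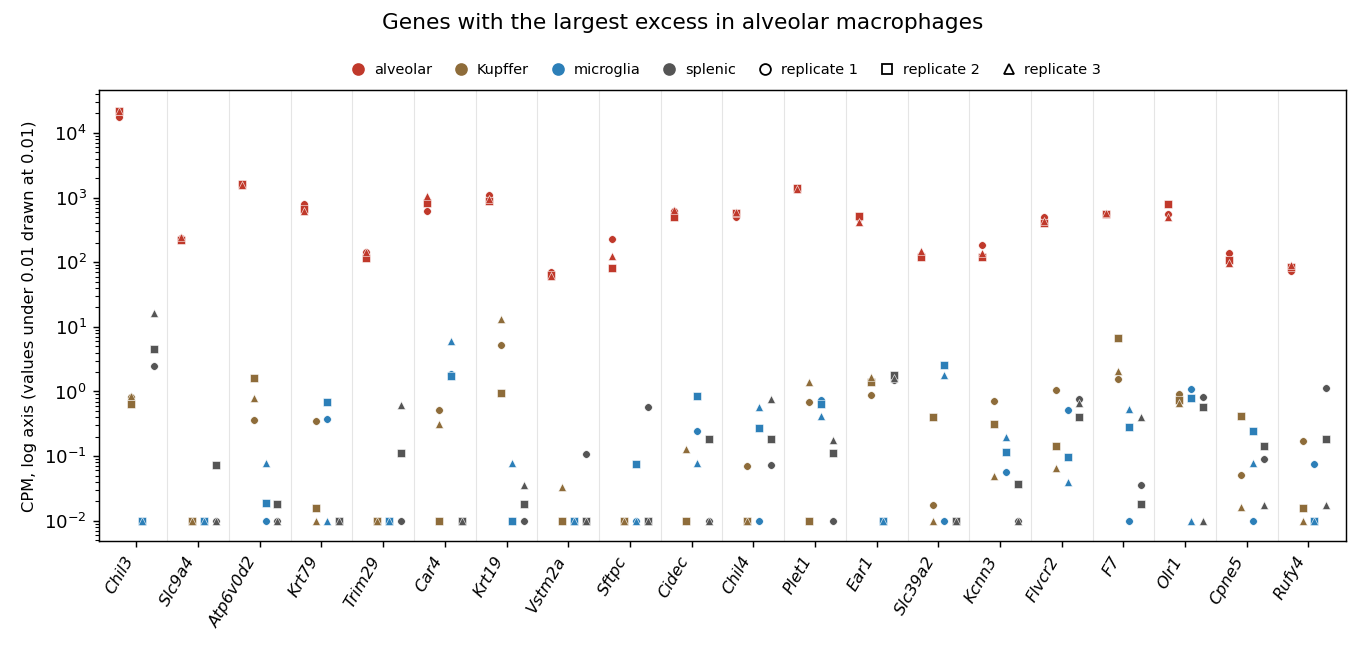
CPM (log axis, values under 0.01 drawn at 0.01) of the 20 genes with the largest excess in alveolar macrophages, for each of the 12 libraries, coloured by cell type and with a marker shape for each replicate. By selection the 3 alveolar points lie above all 9 others in every gene, and Sftpc shows the widest spread among the alveolar points.

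The 20 genes with the largest deficit came from 169 protein-coding genes that were lower than in each other type and reached 50 CPM in each of those. The 3 chains of C1q, which starts the classical complement pathway, were among them. C1qa read 33.4, 14.9 and 34.7 CPM in alveolar libraries, C1qb 51.3, 21.8 and 54.7, and C1qc 45.2, 15.9 and 35.1. C1qc averaged 3184 ± 182 in splenic macrophages, 3701 ± 297 in Kupffer cells and 5742 ± 1113 in microglia (SD, n = 3), and was 99.4-fold higher in the lowest of these than in alveolar macrophages. All alveolar values lay below all others, and alveolar replicate 2 was the lowest for each chain.

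Maf, which encodes the transcription factor c-MAF, read 1.86, 0.66 and 1.09 CPM against means of 55.7 in splenic macrophages, 87.3 in Kupffer cells and 98.1 in microglia. Its log2 difference from splenic macrophages, the lowest other type, was −5.63 ± 0.34 (SE; edgeR adjusted p = 6.33e-07). The lowest value was in alveolar replicate 2, as for C1q.

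Asb2, a substrate adaptor of ubiquitin ligases, read 0.615, 0.165 and 0 CPM in alveolar macrophages and averaged 95.5 in Kupffer cells, the lowest other type. Abcc3, an efflux pump, read 5.23, 1.96 and 0.61 CPM against at least 285 elsewhere. Aif1, which encodes the macrophage actin-binding protein IBA1, read 3.82, 2.98 and 5.8 CPM against at least 259. Itga9, an integrin chain, read 5.62, 3.58 and 6.15 CPM against at least 101, and Ptgs1, the constitutive cyclooxygenase, 15.9, 15.6 and 8.39 CPM against at least 572. Slc40a1, the iron exporter ferroportin, and Slc11a1, an endosomal metal transporter, are described with the iron genes. Others were Tmem37, Kcnk13, Bank1, St3gal5, Cadm1, Ptprm, Fgd2 and Ckb, at 15.1-fold (St3gal5) to 68-fold (Tmem37) below the lowest other type. By selection, no alveolar library overlapped the others in any of them.

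**Figure D2:**
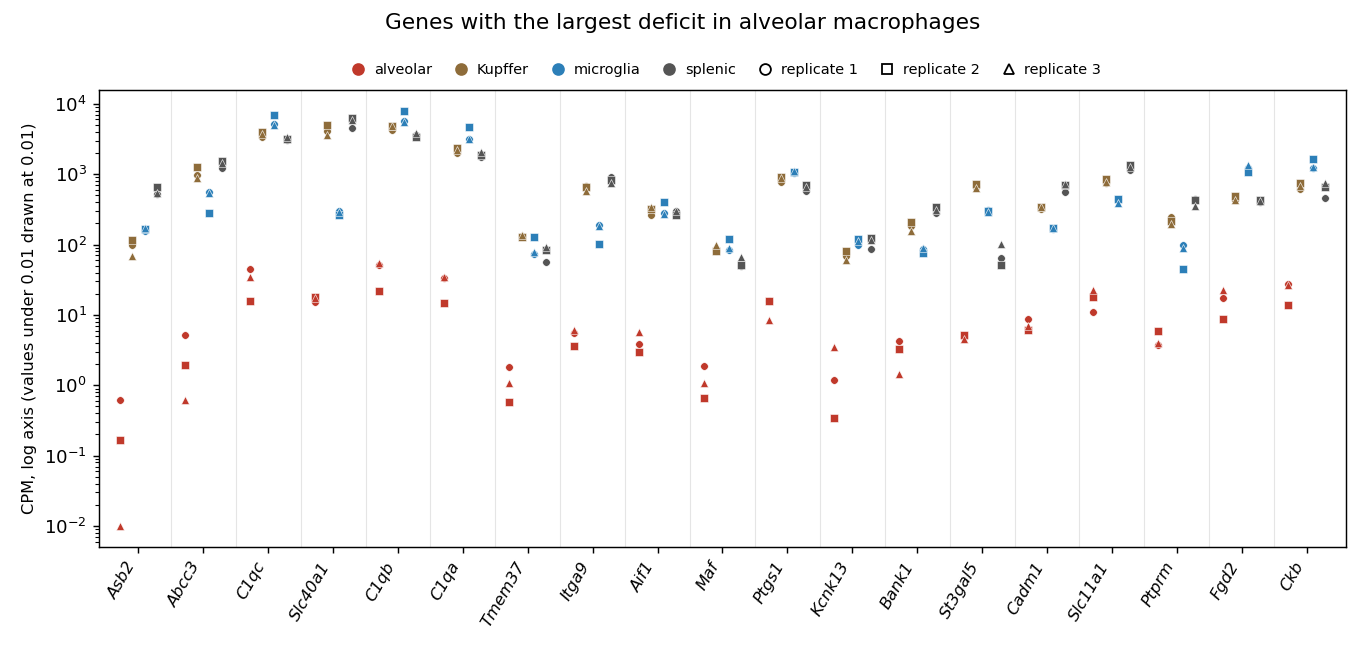
CPM (log axis, values under 0.01 drawn at 0.01) of genes with the largest deficit in alveolar macrophages, for each of the 12 libraries. By selection the 3 alveolar points lie below all 9 others in every gene. In C1qa, C1qb, C1qc and Maf the square of alveolar replicate 2 is the lowest.

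The receptors for the 2 colony-stimulating factors differed in opposite directions. Csf2ra, the ligand-binding chain for GM-CSF, read 1328, 1008 and 1290 CPM in alveolar libraries, against 577, 588 and 489 in Kupffer cells and less in the others. Csf2rb, the signalling chain, read 888, 659 and 752 CPM against 230, 269 and 208. Csf1r, the receptor for M-CSF and IL-34, read 752, 531 and 492 CPM against 6234, 7502 and 6168 in Kupffer cells, and more in the others. Alveolar libraries lay above all others for both GM-CSF receptor chains and below all others for Csf1r. On the log2 scale the differences from Kupffer cells were 1.25 ± 0.15 for Csf2ra, 1.82 ± 0.14 for Csf2rb and −3.37 ± 0.22 for Csf1r (SE; edgeR adjusted p = 8.23e-05, 4.94e-06 and 1.27e-06).

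List counts here and below stand beside 17.3% of all tested genes higher and 14.7% lower than the mean of the other types. Against single types those shares were 12.4% and 15.6% for Kupffer cells, 20.4% and 19.4% for microglia and 12.8% and 14.2% for splenic macrophages. Of 15 tested genes of GM-CSF and M-CSF signalling, 6 were higher and 6 lower than the mean of the other types, with a median log2 difference of 0.22. The same 6 were higher than in each other type, and 3 were lower than in each. Stat5a, a transcription factor activated by the GM-CSF receptor, read 88.7, 78.5 and 71.2 CPM against 30 ± 5.29 in Kupffer cells. Cish, a feedback inhibitor induced by STAT5, read 43.7, 71.2 and 89.6 CPM against 14.8 ± 0.608. Csf1, the gene of M-CSF itself, read 5.63, 5.84 and 8.28 CPM against 21.2 ± 3 in splenic macrophages, the lowest other type. Csf2rb2, a near copy of Csf2rb, read 171, 131 and 177 CPM against 71.2 ± 13.5, and 18.4% of its 50-base windows also occur in Csf2rb, so its reads may be shared.

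Of 36 tested transcription factors of tissue macrophages, 12 were higher and 10 lower, and the median was 0.1. Against splenic macrophages 7 were higher and 14 lower, and against microglia 16 were higher and 13 lower. Pparg, the lipid-sensing receptor of alveolar macrophages, read 350, 370 and 331 CPM, above 197, 278 and 257 in splenic macrophages in every library but by a log2 difference of only 0.43 ± 0.17 (edgeR adjusted p = 0.0877). It averaged 17.3 ± 1.73 in Kupffer cells and 0.356 ± 0.0791 in microglia. Bhlhe40, a repressor that keeps alveolar macrophages self-renewing, read 418, 889 and 457 CPM and overlapped splenic macrophages, at 805, 700 and 431. Egr2, an immediate early transcription factor that GM-CSF can induce, read 1016, 1423 and 818 CPM against 256 ± 65.2 in splenic macrophages. Runx1, a factor of blood cell development, read 458, 349 and 366 CPM against 158 ± 23.2 in microglia. Both were higher than in each other type.

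Lower than in each other type were 7 of the 36. Besides Maf, Klf2, a factor that restrains inflammatory genes, read 104, 128 and 152 CPM against 805 ± 56 in microglia, the lowest other type. Irf8, an interferon regulatory factor of the myeloid lineage, read 175, 166 and 165 CPM against 516 ± 59.1 in Kupffer cells. Mef2c read 14.1, 10.7 and 7.48 CPM and Smad3, which carries TGF-beta signals, 4.7, 2.89 and 4.16 CPM. Determinants of other tissue macrophages were near 0: Spic, a red pulp factor, read at most 0.332 CPM in alveolar libraries against 1476 ± 150 in splenic macrophages, and Sall1, a microglial factor, was at 0 against 444 ± 54.2 in microglia. Zeb2, a repressor shared by macrophages, read 297, 282 and 190 CPM. It averaged 310 ± 17.5 in splenic macrophages, 277 ± 42.9 in Kupffer cells and 259 ± 80.3 in microglia, and its 95% interval on the log2 scale reached from −0.59 to 0.32 against their mean (edgeR adjusted p = 0.675).

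**Figure D3:**
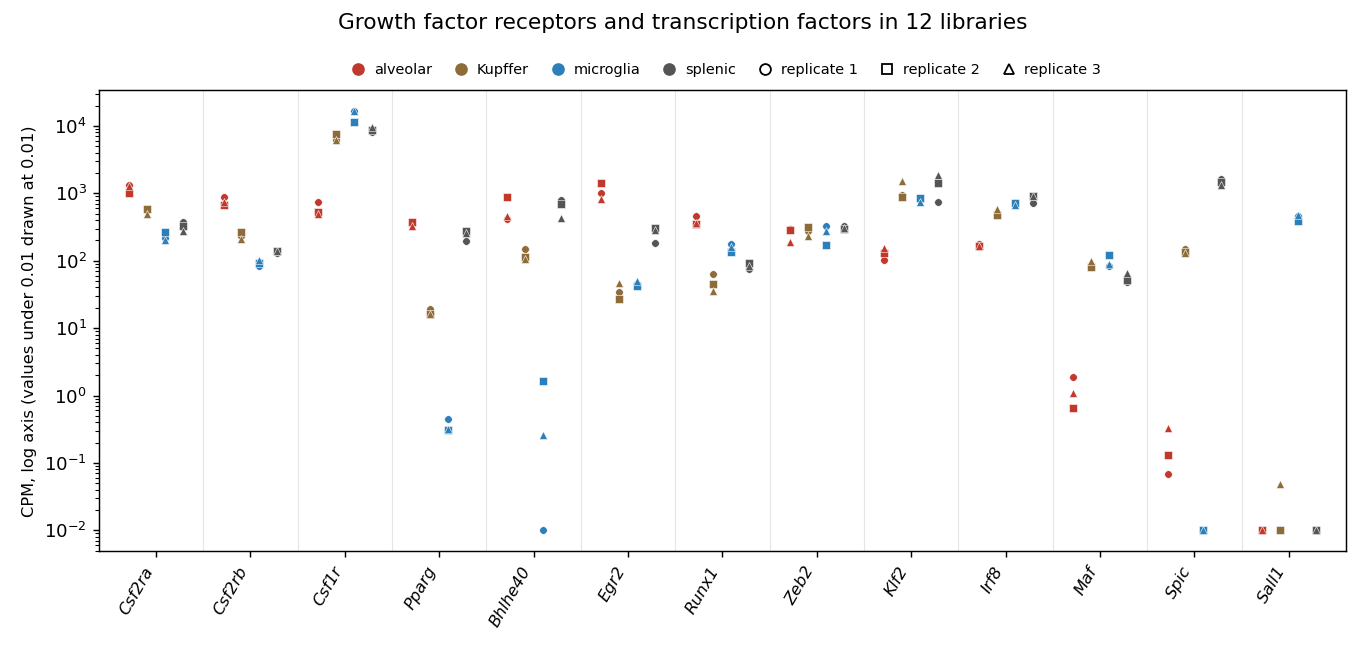
CPM (log axis, values under 0.01 drawn at 0.01) of growth factor receptors and transcription factors in each of the 12 libraries. Csf2ra, Csf2rb, Egr2 and Runx1 are highest in the 3 alveolar libraries, Csf1r, Klf2, Irf8 and Maf are lowest in them, and Zeb2 overlaps in all 4 types.

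Of 20 tested TGF-beta signalling genes, 6 were lower and 4 higher, against 14.7% and 17.3% of all genes, and the median was −0.27. The count of higher genes was thus near the share of all genes. The count of higher genes fell to 1 without alveolar replicate 1 and to 2 without replicate 2 or 3. Smad7, the pathway's inhibitory factor and its target, read 3.71, 4.45 and 5.04 CPM against 31.1 ± 7.46 in splenic macrophages, the lowest other type. It was lower than in each type in all 3 libraries, like Smad3.

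Genes of lipid uptake, binding and storage were mostly higher: 18 of 26 tested, with 2 lower and a median log2 difference of 1.63, against 17.3% and 14.7% of all genes. Lpl, which releases fatty acids from lipoproteins, read 2605, 2637 and 2674 CPM against 697, 853 and 611 in Kupffer cells. Plin2, which coats lipid droplets, read 2819, 2118 and 2686 CPM against 559, 893 and 883 in splenic macrophages. Dgat2, which completes triglyceride synthesis, read 212, 187 and 340 CPM against 37.2 ± 7.14. In all 3 genes the alveolar libraries lay above every other library.

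Fatty acid-binding proteins differed among themselves. Fabp1 read 293, 331 and 310 CPM against 21 ± 16.6 in Kupffer cells, and Fabp5 read 215, 263 and 282 CPM against 65.2 ± 7.9 in splenic macrophages. Fabp4, often used as an alveolar marker, read 64, 172 and 92.5 CPM and overlapped Kupffer cells (121 ± 19.8) and splenic macrophages (77.9 ± 34.8). The scavenger receptor Cd36, which takes up fatty acids and oxidized lipids, read 389, 525 and 524 CPM against 369 ± 29.7 in Kupffer cells, with a log2 difference of 0.50 ± 0.41 (edgeR adjusted p = 0.41).

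Of 20 tested genes of cholesterol synthesis and LDL uptake, 16 were higher than the mean of the other types and 0 lower (edgeR), and the median was 1.46. At an unadjusted p under 0.05 none was lower (0), nor by DESeq2 or limma (0 and 0). Hmgcs1, an early enzyme of the pathway, read 94.9, 96.3 and 97 CPM against at most 31.4 in any other library. Sqle, squalene epoxidase, read 50, 64.2 and 61.8 CPM against at most 17.4, and Cyp51 97.4, 93.6 and 102 CPM against at most 43.9. The alveolar libraries lay above all others in these 3 genes, and the spread among them was small. Against single types, 16 of the 20 were higher than in Kupffer cells, 16 than in microglia and 13 than in splenic macrophages.

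Fatty acid oxidation genes were mostly higher too, with 20 of 23 tested genes higher and 0 lower (edgeR), and a median of 1.08. At an unadjusted p under 0.05, 1 was lower, and DESeq2 called 1 lower. Ehhadh, a peroxisomal enzyme of fatty acid oxidation, read 31.7, 35.2 and 28.5 CPM against 7.97 ± 0.889 in splenic macrophages and at most 10.4 in any other library. Cpt1a, which loads fatty acids for entry into mitochondria, read 652, 592 and 550 CPM against 242 ± 39.6 in Kupffer cells. Both were higher than in each other type and did not overlap them. The regulators Ppara, Ppard and Ppargc1a were the 3 members that were not called.

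Cholesterol efflux genes were divided. Of 17 tested LXR targets and efflux genes, 7 were higher and 6 lower, with a median of −0.15. Against Kupffer cells 5 were higher and 9 lower, against splenic macrophages 4 and 9, and against microglia 7 and 5. Abcg1, which exports cholesterol to high-density lipoprotein, read 1038, 833 and 825 CPM against 198 ± 17.1 in splenic macrophages. Abca1, which loads apolipoproteins with cholesterol, read 297, 193 and 196 CPM. It averaged 474 ± 147 in microglia, 483 ± 99 in Kupffer cells and 543 ± 62.1 in splenic macrophages. Unlike Abcg1, it did not meet the rule for a call against each type. Apoe, a carrier of lipids between cells, read 336, 197 and 359 CPM against 19984 ± 1922 in Kupffer cells, 6793 ± 554 in splenic macrophages and 493 ± 74.1 in microglia. The 2 transporters thus lay on opposite sides of all other libraries.

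**Figure D4:**
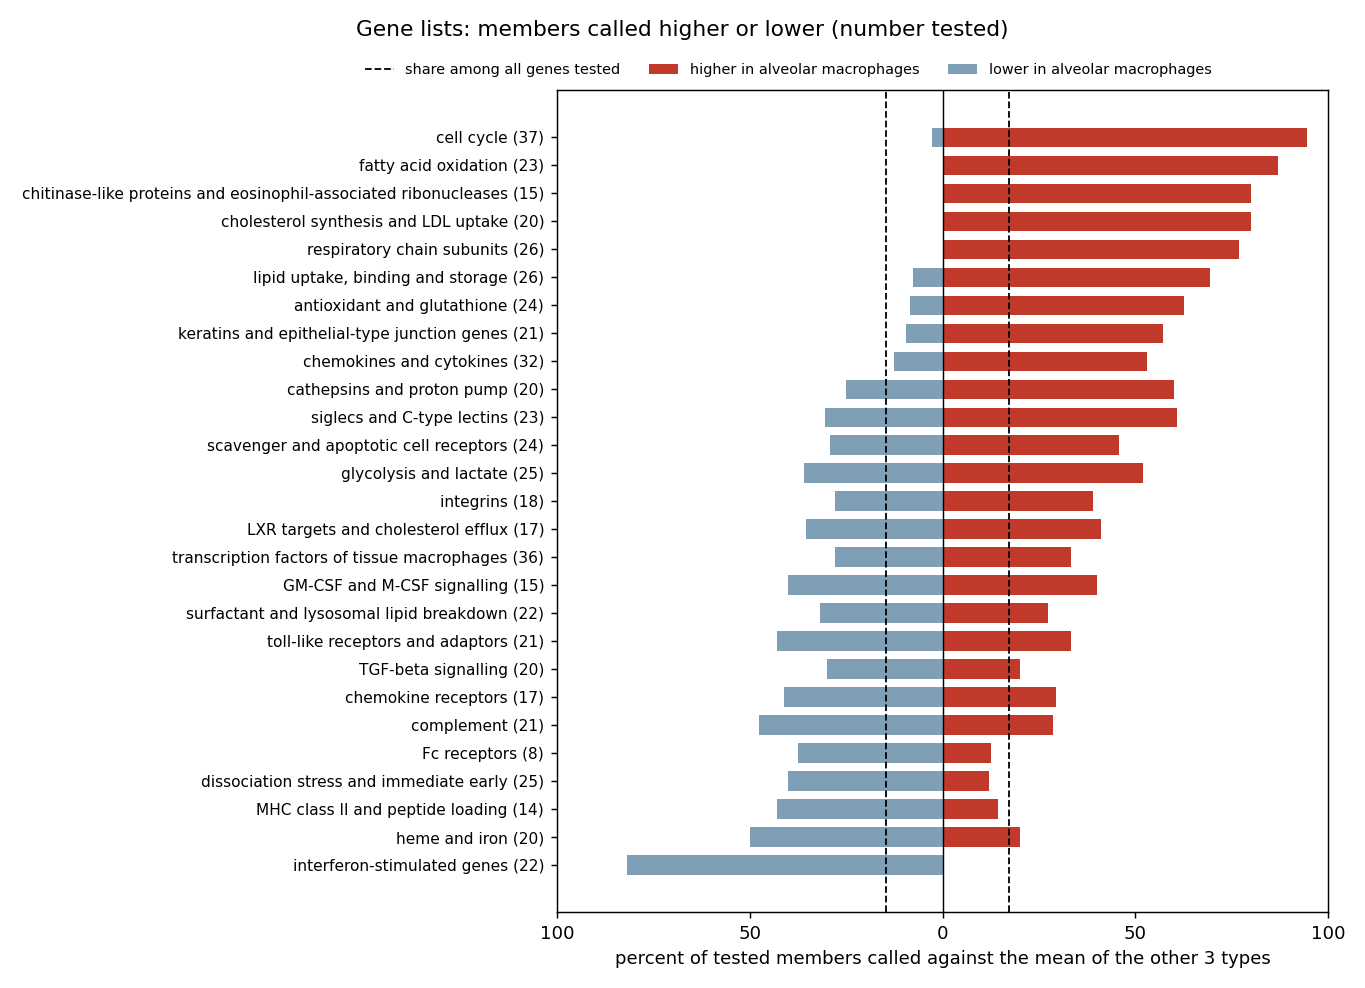
Share of the tested members of each functional gene list (numbers in brackets) called higher (red, to the right) or lower (blue, to the left) in alveolar macrophages than in the mean of the other 3 types, with dashed lines at the 17.3% and 14.7% of all genes tested. Lists of cell type markers are not drawn. Among the lists drawn, cell cycle, fatty acid oxidation, chitinase and ribonuclease, and cholesterol synthesis genes reach furthest to the right, and interferon-stimulated genes furthest to the left.

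Lysosomal genes did not move as 1 group. Of 22 tested genes of surfactant and lysosomal lipid breakdown, 6 were higher and 7 lower (median −0.16). Naaa, which hydrolyses N-acylethanolamine lipids, read 450, 423 and 460 CPM against 82.3 ± 23.2 in Kupffer cells. Lipa, lysosomal acid lipase, read 707, 797 and 728 CPM and overlapped splenic macrophages at 629 ± 99.4. Of 20 tested cathepsins and proton pump subunits, 12 were higher and 5 lower (median 0.37). Ctsk, a collagen-degrading protease, read 276, 372 and 299 CPM against at most 1.98 in any other library, whereas Ctsb, a broad lysosomal protease, read 2426, 2301 and 2213 CPM and lay below 3856 ± 162 in microglia, the lowest other type. Atp6v1b2, a pump subunit present in all cells, read 849, 811 and 707 CPM against 329 ± 23.7 in Kupffer cells, a far smaller gap than that of Atp6v0d2.

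Among the core macrophage genes, 7 of 21 were higher and 7 lower (median −0.07). Lyz2, the lysozyme of myeloid cells, read 26132, 30875 and 30360 CPM against 6349, 8007 and 5465 in Kupffer cells, 424, 210 and 215 in splenic macrophages and 105, 156 and 98 in microglia. Of its 50-base windows 15.4% also occur in Lyz1, so some reads may belong to either. Lyz2 was the most abundant transcript of alveolar macrophages per length, at 69151 TPM, which scales by transcript length as well, ahead of Chil3 at 39042 and Tmsb4x, an actin-binding peptide, at 15858. The chemokine Ccl6 (8243 TPM), the ribonuclease Ear2 (5601 TPM) and the tetraspanin Cd9 (4847 TPM) were also among the 20 highest. Lgmn, a lysosomal protease, read 192, 214 and 235 CPM against 1545 ± 141 in splenic macrophages, the lowest other type. Adgre1, which encodes the surface marker F4/80, read 435, 347 and 401 CPM, below 595 ± 47.3 in microglia.

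Surface receptors used to identify or feed macrophages were split by receptor. Of 24 tested scavenger and apoptotic cell receptors, 11 were higher and 7 lower (median 0.21). Against microglia 14 were higher and 5 lower, against splenic macrophages 8 and 8, and against Kupffer cells 4 were higher and 11 lower. Clec7a, the receptor for fungal beta-glucan also called dectin-1, read 856, 1089 and 898 CPM against 151 ± 29.1 in Kupffer cells. Marco, a receptor for bacteria and particles, read 412, 467 and 850 CPM and overlapped Kupffer cells at 1294, 946 and 767. Timd4, which binds phosphatidylserine on dying cells, read 2.99, 0.824 and 1.9 CPM against 627 ± 61 in Kupffer cells and 227 ± 22.1 in splenic macrophages, but was also low in microglia (0.362 ± 0.281). Mertk, a kinase receptor for dying cells, read 692, 604 and 576 CPM and did not pass the test against the mean of the others (log2 difference −0.34 ± 0.15; edgeR adjusted p = 0.106).

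Of 23 tested siglecs and C-type lectins, 14 were higher and 7 lower (median 1.75). The excess of higher genes was against microglia (15 higher, 5 lower), while 7 were higher and 10 lower than in Kupffer cells and 6 higher and 8 lower than in splenic macrophages. Beside Siglecf, 3.14 ± 0.32 above microglia on the log2 scale, Clec4e, a receptor for mycobacterial glycolipid, read 80.4, 268 and 129 CPM against 7.19 ± 1.85 in Kupffer cells. Siglece, an inhibitory siglec, read 71.1, 53.1 and 59.5 CPM and lay below 125 ± 11.6 in microglia, the lowest other type. Siglech, a microglial lectin, read at most 1.05 CPM.

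Of 18 tested integrins, 7 were higher and 5 lower (median −0.12), with 4 higher and 8 lower than in Kupffer cells and 9 higher and 6 lower than in microglia. Itgax, which encodes CD11c, read 1165, 1024 and 915 CPM against 177, 161 and 155 in splenic macrophages, the next highest type, and 47.2 ± 15.4 in Kupffer cells. Its partner chain Itgb2 read 2484, 2235 and 1940 CPM against 1048 ± 35.5 in splenic macrophages. Itgav and Itgb3, which pair to bind vitronectin, read 53.9, 62.8 and 43.6 CPM and 2.83, 2.39 and 2.81 CPM. Both were below all 9 other libraries, as Itga9 was.

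Of 21 tested complement genes, 10 were lower and 6 higher, with a median of −1.77. The balance turned with the type compared: 13 were lower and 3 higher than in Kupffer cells and 9 lower and 5 higher than in splenic macrophages, whereas 10 were higher and 7 lower than in microglia. C5ar1, the receptor for the fragment C5a, was higher than in each type, at 1127, 1128 and 965 CPM against 199 ± 38.6 in microglia. C3, the central component, read 294, 336 and 387 CPM, above all others, though not past the test against splenic macrophages at 181 ± 58.2 (edgeR adjusted p = 0.2). The Fc receptor Fcgr1, which binds IgG tightly, read 51.7, 52 and 39.8 CPM against 96.8 ± 23.8 in splenic macrophages, the lowest other type. Of 14 tested genes of MHC class II and peptide loading, 6 were lower and 2 higher (median −0.58). Against Kupffer cells 11 were lower and 2 higher and against splenic macrophages 12 and 1, whereas against microglia 10 were higher and 3 lower. Their summed level was 2212 to 3746 CPM in alveolar libraries, 13175 to 16937 in Kupffer cells, 12103 to 19665 in splenic macrophages and 787 to 960 in microglia. Cd86, a costimulatory ligand for T cells, was in the same list and read 33.8, 21.2 and 37 CPM against 976 ± 136 in splenic macrophages, 400 ± 15.8 in microglia and 350 ± 34.4 in Kupffer cells.

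Toll-like receptors and their adaptors were uneven, with 7 of 21 higher, 9 lower and a median of −0.57. Tlr2, which senses bacterial lipopeptides, read 1664, 1859 and 1769 CPM against 393, 341 and 225 in splenic macrophages. Its partner Tlr1 read 1.55, 1.14 and 2.18 CPM against 38 ± 6.68 in splenic macrophages, 44.1 ± 11.3 in Kupffer cells and 49.8 ± 2.09 in microglia. The alveolar libraries were thus the highest for Tlr2 and the lowest for Tlr1. Unc93b1, which escorts the nucleic acid-sensing receptors to endosomes, read 628, 545 and 526 CPM against 1981 ± 98.2 in Kupffer cells, and Ly86 and Cd180, which form a complex related to the receptor for lipopolysaccharide, averaged 24.3 and 2.71 CPM against at least 175 and 14 in other libraries.

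Interferon-stimulated genes were lower in 18 of 22 tested and higher in 0 (edgeR), with a median of −1.81. By an unadjusted p under 0.05 the higher count was also 0, as it was by DESeq2 and limma, and it was 1 without microglial replicate 3. The difference was with Kupffer cells (21 lower, 0 higher) and splenic macrophages (17 lower, 0 higher), whereas against microglia 11 were higher and 7 lower. Irf7, the amplifier of the response, read 12, 17.7 and 21.7 CPM against 965 ± 100 in Kupffer cells, 303 ± 77.6 in splenic macrophages and 8.6 ± 2.88 in microglia. Irf9, part of the factor that switches these genes on, read 28.9, 27.8 and 24.2 CPM and was lower than in each other type, with 81.1 ± 4.32 in microglia the lowest.

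Of 32 tested chemokines and cytokines, 17 were higher and 4 lower, and the median was 1.20. Against microglia 20 were higher and 6 lower, against splenic macrophages 13 and 6, and against Kupffer cells 9 and 7. Ccl6, a chemokine of myeloid cells, read 4511, 4897 and 4781 CPM against 447, 535 and 346 in Kupffer cells. Il1rn, the secreted antagonist of the IL-1 receptor, read 350, 720 and 441 CPM against 39 ± 10.4, and Osm, a cytokine of the IL-6 family, 300, 608 and 320 CPM against 118 ± 23.2 in microglia. These 3 were higher than in each other type with no overlap. Il18, an activator of interferon-gamma production, read 246, 286 and 291 CPM, level with splenic macrophages (242, 259 and 267). Ccr1, a receptor for Ccl6-type chemokines, read 207, 150 and 181 CPM against 13.3 ± 4.54 in microglia.

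The levels of several cytokine genes were set by alveolar replicate 2. Tnf, a central inflammatory cytokine, read 117, 1588 and 232 CPM, and the neutrophil chemokine Cxcl2 269, 2738 and 450. Il1a, an alarm cytokine, read 118, 1259 and 267 CPM. In all 3 the value of replicate 2 was the highest of the 12 libraries. Replicates 1 and 3 lay within the range of the other types for Cxcl2, while for Tnf replicate 3 and not replicate 1 lay above it, and for Il1a replicate 1 lay below it. On the log2 scale Tnf exceeded the mean of the others by 2.92 ± 0.58 (edgeR adjusted p = 0.00253) and by 0.96 without alveolar replicate 2 (0.0928). Cxcl2 differed by 3.3 ± 0.54 and, without it, by 1.55 (0.00775), and Il1a by 1.13 ± 0.49 and −0.46 (0.274). The remaining Cxcl2 difference was with microglia, at 3.91 without replicate 2 (edgeR adjusted p = 0.000116). Against Kupffer cells it was 0.3 (0.697) and against splenic macrophages 0.42 (0.57). Il1rn and Osm kept their excess, at 6.02 and 4.15 without replicate 2. Without that library the whole list had 12 higher and 4 lower, and a median of 0.74.

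Immediate early genes moved with the same library. Egr1 read 684, 4976 and 536 CPM, Nfkbia 422, 2894 and 1006, and Ier2 445, 2502 and 601, all of them genes that cells switch on within minutes of a stimulus. Of 25 tested dissociation stress and immediate early genes, 10 were lower in alveolar macrophages and 3 higher, with a median of −0.69. Without alveolar replicate 2, 15 were lower, 3 higher and the median was −1.4, and without alveolar replicate 1, 6 were lower. Against microglia 13 were lower and 6 higher, against splenic macrophages 8 and 1, and against Kupffer cells 3 and 5. The list's summed level ranged from 13963 to 35909 CPM in alveolar libraries and from 72163 to 80149 in microglia. Heat shock genes Hspa1a (27.3, 20.2 and 1299 CPM) and Hspa1b (49.8, 20 and 2147 CPM) were high in alveolar replicate 3 only among the alveolar libraries. The part of cell isolation in these values was not tested.

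**Figure D5:**
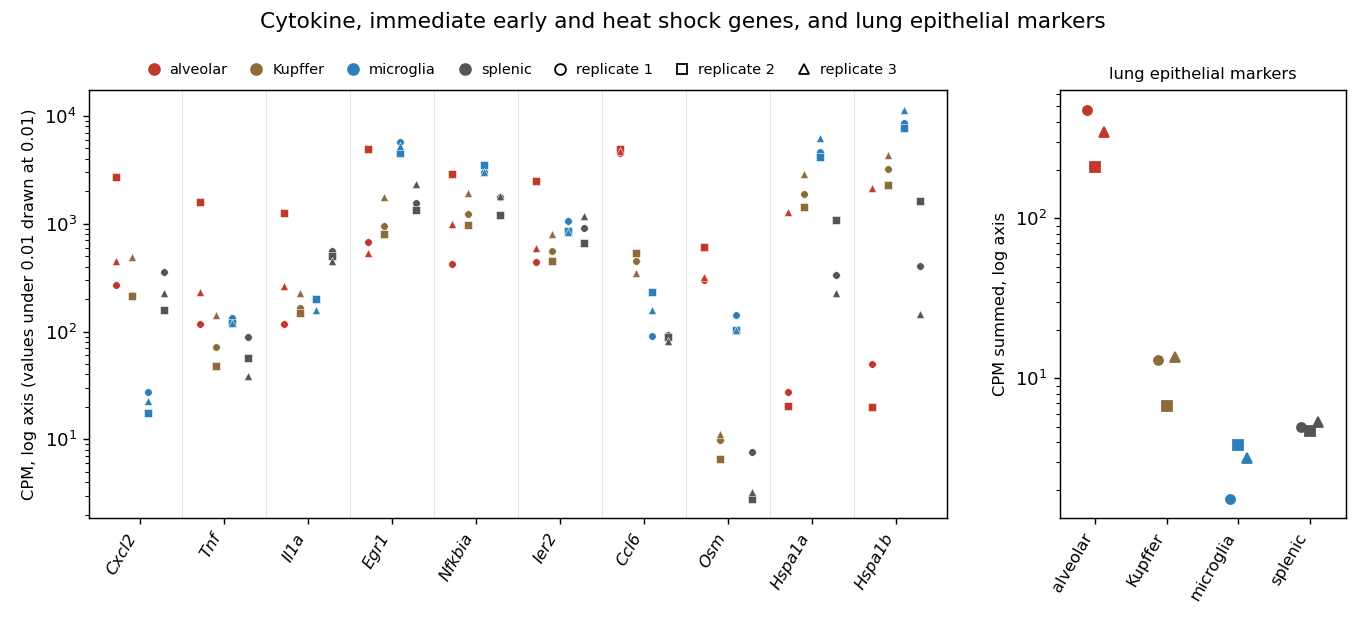
Left, CPM (log axis) of cytokine, immediate early and heat shock genes in each of the 12 libraries, where the square of alveolar replicate 2 stands above the other alveolar points in Cxcl2, Tnf, Il1a, Egr1, Nfkbia and Ier2 and the triangle of replicate 3 in Hspa1a and Hspa1b. Right, the summed CPM (log axis) of 16 lung epithelial markers, which lie between 208 and 476 in alveolar libraries and at most at 13.7 elsewhere.

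Of 15 tested chitinase-like genes and eosinophil-associated ribonucleases, 12 were higher and 0 lower (edgeR), with a median of 6.97. The lower count was 0 by an unadjusted p under 0.05, DESeq2 and limma as well. Ear2 read 1200, 1402 and 1261 CPM against 86.9, 101 and 118 in splenic macrophages and 69.8, 81 and 73.6 in Kupffer cells, and was at 0 in microglia. Ear1 and Ear2 share 23.8% and 23.6% of their 50-base windows, so the split of reads between them is uncertain. Summed over the list, alveolar libraries reached 19737 to 24567 CPM and all others at most 1236.

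Keratin and epithelial-type junction genes were higher in 12 of 21 tested, lower in 2, with a median of 3.95. Cdh1, which encodes E-cadherin, read 117, 117 and 126 CPM against 18.2, 2.54 and 16.3 in Kupffer cells, and Perp, a desmosome protein, 282, 258 and 294 CPM against 8.14 ± 2.5 in microglia. Epcam, an epithelial adhesion molecule, read 98.8, 54.2 and 109 CPM against 4.92 ± 2.52 in Kupffer cells. Krt19 read 1113, 879 and 959 CPM, whereas Krt8 (2.07, 0.264 and 3.77 CPM) and Krt18 (1.33, 0.742 and 1.87 CPM), further keratins of simple epithelium, were not called. Tjp1, a tight junction scaffold, read 4.17, 5.75 and 0.702 CPM and lay below all other types. The group was thus made up of a few abundant members beside others near 0.

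Lung epithelial markers were present in the same libraries. Their sum over 16 genes ranged from 208 to 476 CPM in alveolar libraries, against 4.71 to 5.33 in splenic macrophages, 1.77 to 3.84 in microglia and 6.73 to 13.7 in Kupffer cells. Of 15 tested, 13 were higher and 0 lower (edgeR; 0 also by an unadjusted p under 0.05 and by DESeq2). Sftpc read 232, 80.4 and 126 CPM, and Sftpa1, another surfactant protein, 51.2, 21 and 30.9 CPM. Scgb1a1, a product of airway club cells, read 2.37, 15.1 and 7.22 CPM and none of the list was at 0. Sftpc, Sftpa1, Epcam, Perp and Krt19 were each lowest in alveolar replicate 2, by a larger factor in the first 3 than in Perp and Krt19, and Cdh1 was at 117 CPM in replicates 1 and 2. The part of epithelial RNA in the keratin and junction genes was not tested.

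Cell cycle genes were higher than the mean of the other types in 35 of 37 tested, with 1 lower and a median of 2.35. The difference was with microglia (36 higher, 1 lower) more than with Kupffer cells (16 and 1) or splenic macrophages (10 and 2). Mki67, a marker of dividing cells, read 66, 66.6 and 83.1 CPM against 60.6, 35.9 and 113 in splenic macrophages, 27.2 ± 0.929 in Kupffer cells and 1.44 ± 1.27 in microglia. Bub1b, a mitotic checkpoint kinase, read 83.2, 103 and 107 CPM against 18.6 ± 3.07 in Kupffer cells, and Stmn1, a microtubule regulator, 64.8, 90.8 and 103 CPM against 26.9 ± 3.33. Both were higher than in each other type, while Mki67 overlapped splenic macrophages. Ccnd1, the cyclin of early cell cycle entry, was lower than in each, at 5.14, 3.25 and 1.74 CPM against 21.1 ± 8.08 in splenic macrophages.

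Of 26 tested respiratory chain subunits, 20 were higher and 0 lower (edgeR), with a median of 0.56, and 0 were lower by an unadjusted p under 0.05, DESeq2 or limma. Against microglia 22 were higher, against Kupffer cells 10 and against splenic macrophages 9. Atp5b, a subunit of ATP synthase, read 1064, 1073 and 1184 CPM against 718 ± 48.2 in Kupffer cells. Of 25 tested genes of glycolysis and lactate, 13 were higher and 9 lower (median 0.36), and 5 were lower without alveolar replicate 2. Pfkp, a phosphofructokinase, read 545, 407 and 441 CPM against 115 ± 13.4 in Kupffer cells, and Hk3, a hexokinase of myeloid cells, 82.9, 79 and 80.8 CPM against 224 ± 30.1 in microglia. These 2 enzymes lay outside the range of all other libraries in opposite directions.

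Of 20 tested heme and iron genes, 10 were lower and 4 higher (median −0.9). They were lower in 13 and higher in 3 than in splenic macrophages and lower in 9 and higher in 6 than in Kupffer cells, whereas 10 were higher and 5 lower than in microglia. Slc40a1, the only known cellular iron exporter, read 15.1, 17.7 and 17.2 CPM against 4583, 6249 and 5831 in splenic macrophages, 4125, 5022 and 3577 in Kupffer cells and 295, 260 and 293 in microglia. Slc11a1 read 10.9, 17.7 and 22.6 CPM against 419 ± 29.5 in microglia, and Hmox1, which breaks down heme, 142, 149 and 199 CPM against 358 ± 105 in microglia and 4881 ± 536 in splenic macrophages. Fth1, the heavy chain of the iron store ferritin, was high at 12104, 13336 and 13994 CPM, above 8458 ± 1669 in splenic macrophages, where the log2 difference was 0.56 ± 0.15 (edgeR adjusted p = 0.0175). Slc40a1, Slc11a1 and Hmox1 thus lay below, and Fth1 above, every other library. Ftl1, the light chain of ferritin, read 3228, 3200 and 3351 CPM, between splenic macrophages at 5328, 4978 and 4040 and Kupffer cells at 2715, 2720 and 2684, and was not called against the mean (log2 difference 0.14 ± 0.10; edgeR adjusted p = 0.298).

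Of 24 tested antioxidant and glutathione genes, 15 were higher and 2 lower (median 1.15). Against microglia 19 were higher and 2 lower, against Kupffer cells 9 and 3, and against splenic macrophages 9 and 5. Gsr, glutathione reductase, read 459, 452 and 491 CPM against 161 ± 22.2 in Kupffer cells, and Gstm1, a glutathione transferase, 446, 378 and 378 CPM against 46.4 ± 19.7. Mt1, a metal-binding metallothionein, read 580, 784 and 1269 CPM against 222 ± 69.3 in microglia. No alveolar value of these 3 overlapped another type.

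Genes known to mark alveolar macrophages were chosen for that, so their counts are no independent support: all 28 were higher than the mean of the other types and 23 higher than in each. The 5 that were not were Marco, Fabp4, Pparg, Cxcl2 and Flt1, a receptor for vascular growth factors. Genes that mark the other tissue macrophages were mostly lower. Of 16 tested microglial identity genes, 11 were lower and 1 higher, and all 16 were lower than in microglia, whose markers they are. Against Kupffer cells 8 of them were lower and 4 higher, and against splenic macrophages 7 and 5. Of 18 Kupffer genes, 10 were lower and 1 higher, with 5 lower when microglial replicate 2 was left out, and of 14 splenic genes 9 were lower and 2 higher. Against microglia alone, 11 of the Kupffer genes were higher and 2 lower, and 5 of the splenic genes higher and 4 lower. Summed markers of other cells stood in alveolar libraries at 121 to 169 CPM for endothelium, 113 to 184 for fibroblasts and smooth muscle, 267 to 445 for neutrophils, 227 to 341 for B cells, 343 to 401 for T and NK cells, 126 to 142 for dendritic cells and 13 to 25.6 for red cells and platelets. Most of the T and NK sum was Cd2, an adhesion receptor of T cells, at 289, 324 and 356 CPM in alveolar libraries against 23.6 ± 7.74 in Kupffer cells. The neutrophil sum held S100a8, a calprotectin subunit, at 42.9, 35.4 and 64.4 CPM, with Ly6g, a neutrophil surface marker, at 0 to 0.628. In each of these lists another type reached a higher sum. Kupffer cells stood at 3443 to 4396 CPM for endothelium and 405 to 761 for fibroblasts and smooth muscle. Their T and NK sum was 399 to 619. Splenic macrophages stood at 1402 to 2110 for B cells and 5321 to 20702 for red cells and platelets. Microglia stood at 633 to 867 for neutrophils and 2074 to 2737 for dendritic cells. The dendritic list holds Siglech, which is also among the microglial identity genes. Likewise the endothelial list holds Cdh5, which is also among the Kupffer genes. Those sums in microglia and Kupffer cells can thus include transcripts of the macrophages themselves. The list of monocyte markers went the other way. Its sum was 21080 to 26152 CPM in alveolar libraries and at most 6476 elsewhere, but it holds Chil3, at 17373, 21877 and 21980 CPM in alveolar libraries. The part of other cells in the differences between types was not tested.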

How the data were processed

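Gene-level counts, deposited by the authors in 1 table of 55774 rows, were used for the 12 WT libraries. Per the submitters' processing notes the pipeline named mm10, DRAGEN, STAR, Subread, featureCounts and Salmon, and no label used here says whether counting used strand. The first row of each gene identifier was kept (287 repeated rows were left out), leaving 55487 genes. CPM values deposited by the authors matched counts rescaled to library totals to within 4.7e-11. Deposited TPM values served for ranking transcripts per length. The authors' columns of splenic replicate 3 and of the other genotype's splenic libraries are TPM by name but, with repeated rows, sum past the TPM total, so they are treated as a score.

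Genes were filtered with filterByExpr (minimum count 10), scaled by TMM and fitted with edgeR 4.0.16 (R 4.3.3) quasi-likelihood models over the 12 libraries. Contrasts were alveolar macrophages minus the mean of the other 3 coefficients and minus each, with Benjamini-Hochberg adjustment over all 21679 tested genes and a threshold of 0.05. A gene was called higher or lower than in each other type if it passed in all 3 pairwise contrasts by more than 2-fold. The code was tested on simulated data. Alternatives were DESeq2 1.42.0, limma 3.58.1 (voom), RLE scaling, other filters, a replicate block, leaving out each library and leaving 1 type out of the mean.

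Named genes were the 20 with the largest excess, the 20 with the largest deficit, the markers, Zeb2 and Maf. The most abundant transcripts and 2 to 6 members of each gene list were named too. Genes of largest excess or deficit had to be called against each type, at 50 CPM or more. They also had to show no overlap between alveolar and other libraries. The members and lists were chosen with earlier results of these data known. A few genes that this rule names are not reported here. Close gene copies were compared by shared 50-base windows of GENCODE transcripts. Counts are not corrected for reads shared between such copies. Precision is limited by 3 libraries a group.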

Additional observations from a re-analysis of the deposited data

How the results depend on the processing

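Counts over all genes tested kept within 1.5 times of the reported value under all alternatives run for them. Counts within gene lists are smaller, and those of higher TGF-beta signalling genes (4) and of lower Kupffer identity (10), glycolysis (9) and dissociation genes (10) fell to as few as 1, 5, 5 and 6 when 1 library was left out. Leaving out 1 library gave 2918 to 4187 genes higher and 2396 to 3219 lower than the mean of the other types. Against Kupffer cells it gave 1939 to 2986 higher and 2666 to 3571 lower, against microglia 3664 to 4447 and 3293 to 4182, and against splenic macrophages 2065 to 3060 and 2487 to 3282. Genes higher than in each other type numbered 634 to 779 and genes lower than in each 794 to 869. Same-numbered replicates did not deviate together (18 correlations between −0.022 and 0.077). Such correlations between different tissues cannot show whether same-numbered libraries came from the same animal, and the labels do not say. With the replicate block, 3601 genes were higher and 2971 lower than the mean, and 705 and 849 than each type. DESeq2 gave 3878 and 4319 against the mean and limma-voom 4291 and 3339. Without microglia in the mean the counts were 3096 and 3239. Of 130 named genes called against the mean, 124 kept their call and direction under all alternatives that could be fitted, and 6 lost the call under at least 1: Bhlhe40, Lipa, Marco and Mki67 when microglia were left out of the mean, Fabp4 then and also with DESeq2 or without alveolar replicate 2, and Tnf without alveolar replicate 2. Of 17 named genes not called against the mean, 14 were called under at least 1 alternative, so those results depend on the setting. Of 67 named genes higher and 42 lower than in each type, 105 were kept in all 18 refits. Tnf was kept in 8, Fcgr1 and Itgav in 16 and Siglech in 17. Fcgr1 lost it without alveolar replicate 3 or splenic replicate 3, and Itgav without alveolar replicate 3 or Kupffer replicate 2. The cause was not tested.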
